A study of Canis lupus familiaris with 26 samples.

Results

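Control corpora lutea (CL) collected on day 10 after ovulation were compared with control CL collected on day 5, using all control samples of both days, which are 7 of the 26 samples of the series. Day 5 had 4 samples and day 10 had 3. Each sample was the poly-A selected RNA of luteal tissue from an individual bitch of mixed breed, in spontaneous oestrus, with day 0 set when progesterone in blood exceeded 5 ng/ml. Ages varied and are not given per animal. The control dogs received no firocoxib, the cyclooxygenase 2 (COX2) inhibitor given to the treated dogs at 10 mg/kg per day. The labels' protocol describes a placebo for them, while the design text calls them untreated. CL were collected at ovariohysterectomy on the last day. The study set aside a further day 10 sample of each treatment as an outlier by its correlation with the other samples, and neither was analysed here. The spread within day 10 is therefore that of samples kept for their likeness, and P values rest on it. All libraries were prepared at the same time.

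The CL is the gland that forms from the ruptured follicle and secretes progesterone. In its first days the follicle wall is rebuilt: fibroblasts lay down and remodel matrix, capillaries grow in, leukocytes enter, and granulosa cells become luteal cells that take up cholesterol and make steroid from it. In the dog this early gland does not depend on gonadotropins, and prostaglandin E2 made through COX2 (PTGS2) is held to support its steroid output.

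The counted reads of a sample numbered 17654155 to 22658950 on day 5 and 12831896 to 21405040 on day 10. Levels are given as CPM, the reads of a gene relative to the scaled total of its sample, and 1 CPM stood for 12.9 to 23.9 reads. The 10 most counted genes took 13.5 to 17.8% of the reads on day 5 and 18.8 to 22.5% on day 10. The aromatase CYP19A1, the nuclear receptor NR5A2 and the receptors for luteinizing hormone (LHCGR) and prolactin (PRLR), all known from luteal cells, were counted in each of the 7 samples, LHCGR at 15.4 to 39.4 CPM. Gene symbols were available for 4240 of the 13538 genes tested (31.32%). These are genes that the study had listed as differentially expressed in other contrasts, some of which used the same samples, so they are not a neutral sample of genes: 9.15% of them had a P under 0.05, against 7.08% of all genes tested. At a P under 0.01 it was 2.31% of them, 0.873% higher and 1.44% lower on day 10. Their groups were separate in 7.62%, 3.44% above and 4.17% below, and DESeq2 called 1.7%, 0.542% higher and 1.16% lower. Counts of lists, all of which hold genes with a symbol, are to be read against these shares.

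The profiles of the days lay close together. The mean Pearson correlation of log2 CPM across genes was 0.95 among day 5 samples, 0.951 among day 10 samples and 0.944 between the days. Measured over the 2000 most variable genes, the group means were 46.5 log2 units apart, a distance reached or exceeded in a share of 0.143 of the 35 ways of dividing the samples (exact permutation test, 1-sided, smallest possible p = 0.0286). The leading principal component held 36.2% of the variance and was set mainly by replicate 3 of day 5, with a score of -57.44. On the next component, with 19.9%, replicate 4 of day 10 stood apart at -45.42.

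Gene by gene, 1 of 13538 genes (0.00739%) met the study's thresholds of P under 0.01 and FDR under 0.1 in edgeR's quasi-likelihood test, and this was HERC6, which fell. Without the adjustment, 227 genes (1.68%) had a P under 0.01, of which 90 (0.665%) were higher and 137 (1.01%) lower on day 10, and 959 (7.08%) had a P under 0.05, 409 (3.02%) of them higher and 550 (4.06%) lower. Without replicate 2 of day 10 the count at a P under 0.05 was 620. After HERC6, the smallest FDR was 0.204. DESeq2, the tool of the study, called 144 genes (1.06%) at the same thresholds, 49 (0.362%) higher and 95 (0.702%) lower. It called 101 to 246 genes when each sample was left out in turn (230 and 246 without replicates 1 and 5 of day 5, 235 without replicate 3 of day 10), and 50 of the 144 were called in each of these 7 fits. The days did not overlap in 951 genes (7.02%), 458 of them (3.38%) above and 493 (3.64%) below. The median log2 fold change of day 10 over day 5 was -0.02 over all genes. These are whole-tissue samples, in which fewer cells of a type and less RNA per cell cannot be told apart.

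**Figure D1:**
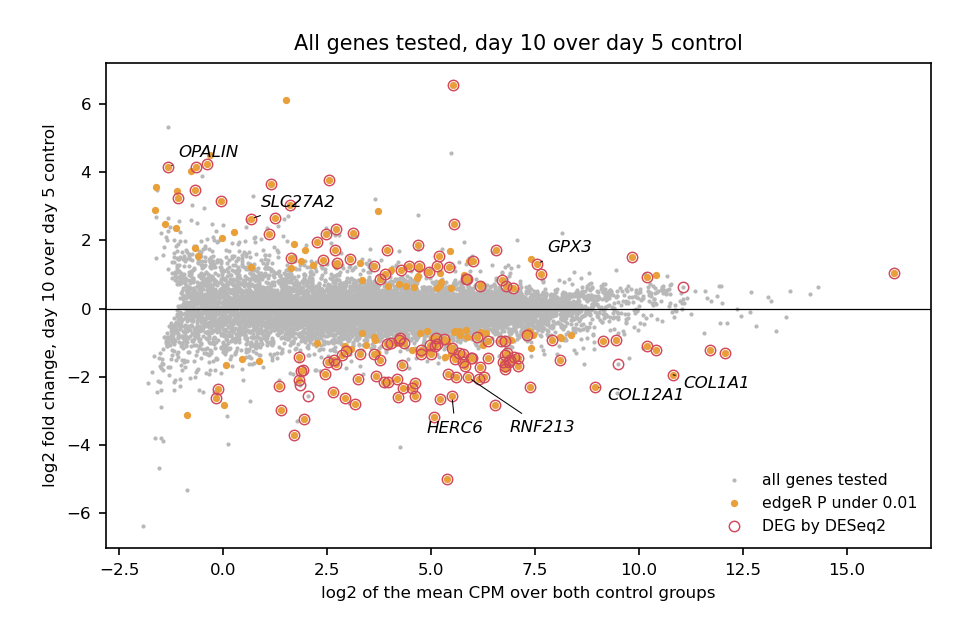
Log2 fold change of day 10 over day 5 control for each of the 13538 genes tested (vertical axis) against the log2 of the mean CPM of both control groups (horizontal axis). Orange points are the 227 genes with an edgeR P under 0.01 and red rings the 144 DEGs by DESeq2; HERC6 alone passed the edgeR thresholds.

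Of the symbols available, genes with the smallest P among those with separate groups are plotted by sample, the first 10 that were lower on day 10 and 9 of the first 10 that were higher. Of the 10 on the lower side, 3 code for collagens (COL1A1, COL5A1, COL12A1), and the others were HERC6, PARP14, RNF213, EIF2AK2, MEDAG, ITGA6 and IGFBP2. On the higher side were ST6GALNAC3, HPGD, PPM1H, SLC27A2, OPALIN, EMID1, GPX3, KCNN1 and NPTX2. DESeq2 called all of them, while edgeR called HERC6 alone. With 1 sample left out in turn, DESeq2 called each of the 10 lower genes in all 7 fits. None of the 9 higher genes was called in all 7. ST6GALNAC3, HPGD, SLC27A2, EMID1 and GPX3 were called in 6, PPM1H, KCNN1 and NPTX2 in 5, and OPALIN in 0.

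**Figure D2:**
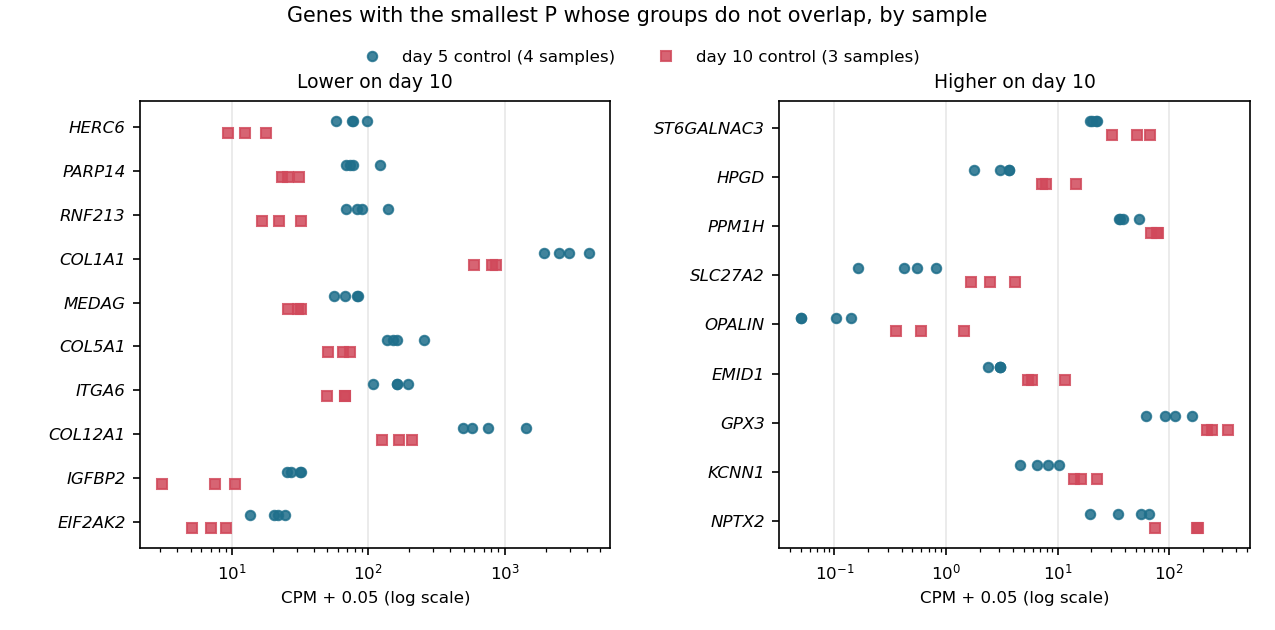
CPM of each control sample, on a log axis after adding 0.05, for the 10 lower genes, and 9 of the 10 higher genes, with the smallest P and groups that do not overlap. Circles are the 4 day 5 samples and squares the 3 day 10 samples; in every gene shown they are separate because the genes were chosen so.

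HERC6 (ENSCAFG00000009781) codes for a ubiquitin ligase family member known as interferon-induced. Its levels were 98.4, 58.3, 76.9 and 76.5 CPM in the 4 day 5 samples and 9.38, 12.4 and 17.7 CPM in the 3 day 10 samples. Every day 10 sample lay far below every day 5 sample, though separate groups were a condition of its choice. The means were 77.5 ± 16.4 CPM (SD, n = 4) and 13.2 ± 4.22 CPM (SD, n = 3), a 5.9-fold fall. Its log2 fold change was -2.56 with a standard error of 0.28 (edgeR FDR = 0.0699, DESeq2 FDR = 9.23e-15). Leaving out 1 sample kept the log2 fold change between -2.85 and -2.39, but the call held in 1 of these 7 fits, that without replicate 3 of day 5 (FDR = 0.0387), with FDR values up to 0.395 in the others. It did not hold when all 13 control samples (FDR = 0.329) or all 26 samples (FDR = 0.9999) shared 1 estimate of the spread.

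Next to HERC6 stood 3 genes that are also known from the interferon response but not on the list of interferon-stimulated genes. PARP14, an ADP-ribosyltransferase, had 121, 68.5, 73.4 and 77.7 CPM on day 5 and 25.9, 31.1 and 23.4 CPM on day 10. RNF213, a very large ubiquitin ligase, had 139.5, 83.1, 90.4 and 68.4 CPM and then 16.7, 32.1 and 22 CPM. EIF2AK2, the kinase PKR that senses double-stranded RNA, had 20.5, 24.7, 13.5 and 21.7 CPM and then 6.97, 9.08 and 5.06 CPM. In each the highest day 10 sample stayed below the lowest day 5 sample, which the choice of genes with separate groups required. The log2 fold changes were -1.67 (SE 0.25) for PARP14, -2.02 (SE 0.32) for RNF213 and -1.52 (SE 0.30) for EIF2AK2. None passed edgeR's adjustment (FDR = 0.204 for PARP14 and 0.258 for EIF2AK2).

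Of the 26 interferon-stimulated genes on the list, 4 had a symbol here and were tested, and 3 of them were lower on day 10. Their median log2 fold change was -1.33. ZBP1, a sensor of left-handed nucleic acid, had 4.9, 2.06, 4.18 and 5.61 CPM on day 5 and 0.775, 1.32 and 0.471 CPM on day 10 (log2 fold change -2.27, SE 0.50). IFI6, a classical interferon-response gene, had 4.86, 0.5, 3.77 and 4.86 CPM and then 6.12, 1.32 and 0.706 CPM, with overlapping groups and a log2 fold change of -0.40 (SE 0.83). IRF1, a transcription factor of the same response, had a value of 0.02 (SE 0.25). HERC6 and ZBP1 had a P under 0.01, 2 of 4 genes, beside 1.44% of genes with a symbol that were lower at that level. The median was -2.00 without replicate 2 of day 10, the sample with the highest IFI6, and -1.02 without replicate 4.

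Collagen genes were lower on day 10, though none passed the edgeR thresholds. COL1A1, which codes for the alpha 1 chain of type I collagen, had 4145, 1930, 2959 and 2486 CPM on day 5 and 801, 860.2 and 593 CPM on day 10. The groups were far apart. The means were 2880 ± 942 CPM (SD, n = 4) and 752 ± 140.4 CPM (SD, n = 3), with a log2 fold change of -1.94 (SE 0.31, edgeR FDR = 0.204, DESeq2 FDR = 1.71e-07). COL5A1, whose product starts the assembly of type I fibrils, had 255, 152, 162 and 138 CPM and then 64.9, 73.2 and 50.3 CPM. COL12A1, a collagen attached to fibrils, had 760.1, 1440, 572 and 492 CPM and then 169, 209.8 and 125 CPM. Separate groups were a condition of the choice of each of these genes. The log2 fold changes of COL5A1 and COL12A1 were -1.50 (SE 0.26) and -2.29 (SE 0.41).

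Of the 32 fibroblast and collagen genes on the list, 27 were tested, 24 of them lower and 3 higher, and their median log2 fold change was -0.62 beside -0.02 over all genes. None was called by edgeR. At an unadjusted P under 0.05 there were 13 lower and 0 higher, where 5.35% of genes with a symbol were lower, and 7 of the 13 had a P under 0.01. DESeq2 called 7, and in 9 the day 10 samples all lay below those of day 5, against 4.17% of genes with a symbol. The mean log2 CPM of the list was 7.26 to 7.66 on day 5 and 6.54 to 6.93 on day 10. Leaving out 1 sample at a time left the median between -0.69 and -0.55.

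The other genes of the list with a P under 0.01 were COL1A2, COL3A1, LOX and LUM, named after their values were seen. COL1A2, the partner chain of COL1A1 in type I collagen, had 8423, 4935, 5610 and 5694 CPM on day 5 and 2807, 2825 and 1874 CPM on day 10. COL3A1, the chain of type III collagen, had 6295, 4302, 4248 and 4017 CPM and then 1729, 2037 and 2331 CPM. LOX, the enzyme that crosslinks collagen, had 84.4, 180.4, 77.6 and 141 CPM and then 52.4, 48.8 and 33.4 CPM. LUM, a proteoglycan that spaces fibrils, had 1209, 2462, 1275 and 1383 CPM and then 748, 610.2 and 888 CPM. In each of these 4 genes the groups did not overlap, with log2 fold changes of -1.44 for LOX, -1.31 for COL1A2, -1.22 for COL3A1 and -1.09 for LUM. The list was not lower throughout. COL14A1, OGN and LOXL1 had positive values, the highest 0.56 (SE 0.45) for COL14A1.

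**Figure D3:**
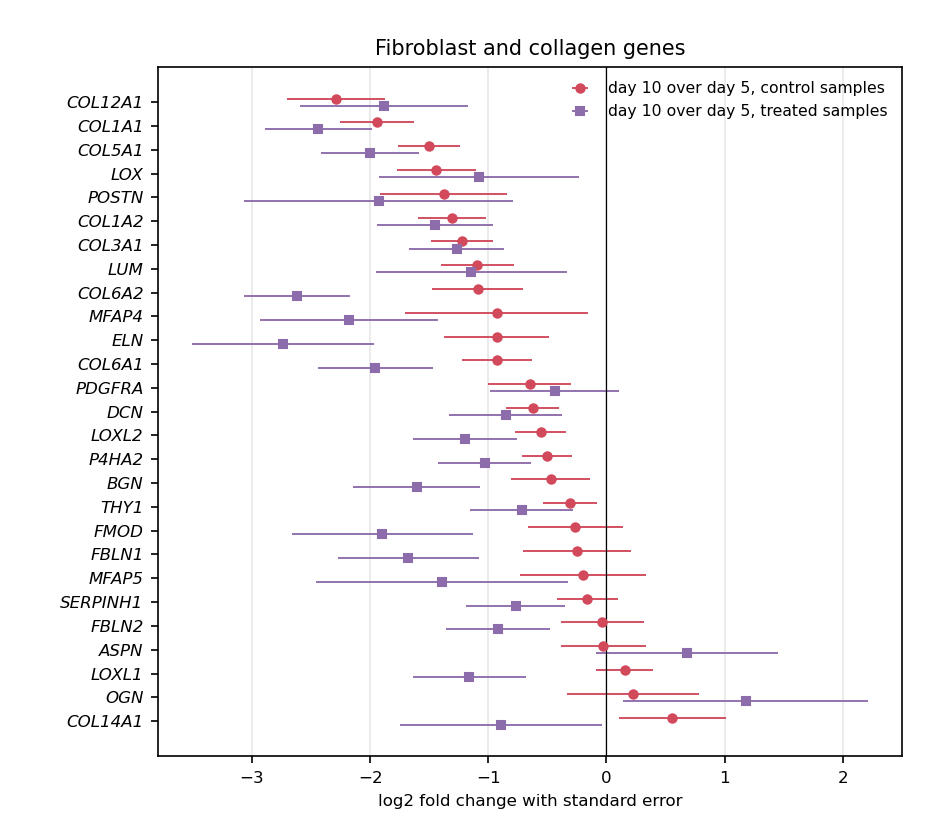
Log2 fold change of day 10 over day 5 with its standard error for the 27 fibroblast and collagen genes tested, ordered by the value in control samples. Circles are the control and squares the treated samples, which are other dogs; 24 control and 25 treated values lie below 0.

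Basement membrane and matricellular genes had a median log2 fold change of -0.56, with 8 of 10 lower, 4 of them at a P under 0.05, and 1 higher at that level. The median was -0.88 without replicate 3 of day 10. FN1, which codes for fibronectin, had 589.6, 1029, 760.5 and 295 CPM on day 5 and 195, 364 and 330.3 CPM on day 10, with 1 day 5 sample inside the day 10 range. NID1 (nidogen) had a log2 fold change of -0.90 (SE 0.30) and HSPG2 (perlecan) one of -0.85 (SE 0.29). Of 19 matrix proteases and inhibitors, 16 were lower, 3 of them at a P under 0.05, with a median of -0.22 (-0.50 without replicate 4 of day 10, -0.10 without replicate 2). SERPINE2, an inhibitor of thrombin and plasminogen activators, had 873, 802, 1235 and 721 CPM and then 383, 529 and 532 CPM (log2 fold change -0.92, SE 0.25, DESeq2 FDR = 0.0417). MMP12, the macrophage elastase, had 11.9, 5.72, 2.02 and 3.89 CPM and then 1.78, 0.365 and 1.65 CPM (log2 fold change -2.26, SE 0.71), the samples of day 10 all being lower. The cathepsin CTSS had a log2 fold change of -0.76 (SE 0.32).

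The other 3 genes at the top of the lower list have roles in adhesion, growth factor binding and adipogenesis. ITGA6, the alpha 6 subunit of laminin-binding integrins, had 163, 196, 108 and 162 CPM on day 5 and 67.7, 49.9 and 67.2 CPM on day 10 (log2 fold change -1.36, SE 0.24). MEDAG, known from adipocyte differentiation, had 67.2, 84.3, 82.9 and 55.9 CPM and then 32.2, 30.5 and 25.6 CPM (log2 fold change -1.31, SE 0.21). IGFBP2, which binds insulin-like growth factors (IGF), had 31.8, 25.4, 27.2 and 31.9 CPM and then 10.5, 3.01 and 7.54 CPM (log2 fold change -2.07, SE 0.38). In each of the 3 the day 10 samples all lay below those of day 5, since genes with separate groups were chosen. PAPPA, the protease that frees IGF from its binding proteins, had 27.9, 67.2, 46.1 and 40.0 CPM and then 15.7, 13.1 and 26 CPM (log2 fold change -1.32, SE 0.34). The IGF system had members on both sides. Of 9 genes tested, 5 were higher and 4 lower, the median was 0.28 (-0.28 without replicate 3 of day 10), and IGFBP2 and PAPPA were those with a P under 0.05. IGFBP6 had a log2 fold change of 0.74 (SE 0.39).

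On the higher side, HPGD codes for the dehydrogenase that inactivates prostaglandins. It had 1.72, 3.61, 2.99 and 3.62 CPM on day 5 and 14.5, 7.21 and 7.77 CPM on day 10, with means of 2.98 ± 0.894 (SD, n = 4) and 9.82 ± 4.05 CPM (SD, n = 3) and a log2 fold change of 1.71 (SE 0.37, edgeR FDR = 0.347, DESeq2 FDR = 0.00481). GPX3, the secreted glutathione peroxidase, had 162, 62.1, 113 and 91.9 CPM and then 338, 242 and 217 CPM (log2 fold change 1.30, SE 0.31). In both genes the lowest day 10 sample was above the highest day 5 sample, which was a condition of their choice. SLC27A2, which activates and imports long-chain fatty acids, had 0.503, 0.111, 0.368 and 0.756 CPM and then 1.63, 2.42 and 4.12 CPM, which were 36 reads over the 4 day 5 samples and 144 over the 3 day 10 samples. Its log2 fold change was 2.63 (SE 0.60).

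ST6GALNAC3, a sialyltransferase, had 21.9, 22.6, 20.2 and 19.6 CPM on day 5, a narrow range, and 67.3, 51.5 and 31 CPM on day 10. PPM1H, a protein phosphatase, had 35.5, 36.3, 38.9 and 53.3 CPM and then 69.1, 77.6 and 80.1 CPM. NPTX2, a pentraxin known from synapses, had 34.5, 19.5, 55.6 and 66.2 CPM and then 179, 74.2 and 183 CPM, the closest approach of the groups among these. KCNN1, a calcium-activated potassium channel, had 6.49, 4.56, 8.23 and 10.2 CPM and then 22.5, 13.9 and 16.1 CPM. EMID1, an extracellular protein, had 2.98, 2.33, 2.99 and 3.02 CPM and then 5.89, 5.43 and 11.7 CPM. The log2 fold changes of these 5 lay between 0.88 for PPM1H and 1.72 for NPTX2, with 1.24 for ST6GALNAC3, 1.24 for KCNN1 and 1.43 for EMID1.

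OPALIN, known from myelin, had 0, 0, 2 and 1 reads and then 4, 12 and 24 reads, too few on day 5 for a fold change to be given (edgeR FDR = 0.378, DESeq2 FDR = 0.0961).

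Among 11 genes of steroidogenesis tested, 8 were higher and 3 lower on day 10. The median log2 fold change was 0.21, but -0.11 without replicate 2 of day 10 and 0.03 without replicate 4, and 1 gene had a P under 0.05. That was CYP19A1, the aromatase that makes oestradiol, with 185, 156, 108 and 453 CPM on day 5 and 699.9, 358 and 359.6 CPM on day 10 (log2 fold change 1.06, SE 0.47). Replicate 5 of day 5 lay within the day 10 range. NR5A2, a nuclear receptor that drives steroidogenic genes, had a log2 fold change of -0.44 (SE 0.23), and HSD17B1, a reductase of oestrone, one of 1.5 (SE 1.0). STAR, CYP11A1 and HSD3B2, the core of progesterone synthesis, had no symbol here and were not analysed. LHCGR had 31.6, 20.0, 21.9 and 29.1 CPM and then 39.4, 38.8 and 15.4 CPM (log2 fold change 0.27, SE 0.33). PRLR had 204, 351, 160.5 and 242 CPM and then 157, 254 and 173 CPM (log2 fold change -0.31, SE 0.30). Of 14 hormone and growth factor receptors, 1 had a P under 0.05. This was FSHR, the receptor for follicle-stimulating hormone, with 858, 489, 781 and 885 CPM and then 803, 1734 and 2011 CPM, higher in 2 of 3 day 10 samples than in any day 5 sample (log2 fold change 1.0, SE 0.34). EGFR had a log2 fold change of -0.66 (SE 0.34) and the oestrogen receptor ESR1 one of 0.62 (SE 0.44), which was 0.02 without replicate 3 of day 10.

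Enzymes of cholesterol biosynthesis were higher on day 10 in 10 of 11 cases, and none had a P under 0.05. Their median log2 fold change was 0.33. The groups overlapped in every one, and the median was -0.09 without replicate 2 of day 10 and 0.78 without replicate 5 of day 5. TM7SF2, a sterol reductase with the smallest P of the list, had 57.5, 26.4, 53.8 and 173 CPM on day 5 and 299, 100.4 and 83.5 CPM on day 10 (log2 fold change 1.05, SE 0.62, 0.22 without replicate 2 of day 10). Genes of cholesterol uptake and storage had a median of -0.36 with 6 of 8 lower (-0.24 without replicate 4 of day 5). ABCA1, the pump that exports cholesterol from cells, had 151, 397, 199.6 and 91.2 CPM and then 47.1, 59.1 and 90.7 CPM (log2 fold change -1.69, SE 0.48, DESeq2 FDR = 0.0361). The day 5 samples spread more than 4-fold in this gene, and the lowest of them, 91.2 CPM, stood just above the highest of day 10, 90.7 CPM. NR1H3, the sterol-sensing receptor LXR alpha, had a log2 fold change of -0.70 (SE 0.30).

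In the prostaglandin system, 14 genes were tested, 6 higher and 8 lower, with a median log2 fold change of -0.31 (-0.14 without replicate 1 of day 5). PTGS2, the COX2 gene itself, had 80.0, 236, 339 and 182 CPM on day 5 and 112, 58.6 and 158 CPM on day 10 (log2 fold change -0.94, SE 0.47). The groups overlapped, since replicate 1 of day 5 was at 80.0 CPM. PTGES, the prostaglandin E2 synthase, had 93.8, 32.1, 99.7 and 73.8 CPM and then 74, 34.9 and 77.1 CPM (log2 fold change -0.28, SE 0.39). SLCO2A1, the carrier that takes prostaglandins into cells, had 15.9, 23.7, 29 and 19 CPM and then 12.9, 13.9 and 14 CPM (log2 fold change -0.69, SE 0.24). With HPGD, it was 1 of the 2 genes of the list with a P under 0.05, and HPGD was the one with a P under 0.01. PTGDS, the prostaglandin D2 synthase, had 47.5, 4.33, 39.5 and 22.4 CPM and then 108, 59.7 and 29.7 CPM (log2 fold change 1.20, SE 0.66).

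Endothelial genes also had members on both sides. Of 13 tested, 7 were higher and 6 lower, the median log2 fold change was 0.04, and 3 were higher at a P under 0.05, where 3.8% of genes with a symbol were higher. EMCN, a sialomucin of capillaries and veins, had 65.8, 96.8, 75.3 and 61.2 CPM on day 5 and 157, 110.2 and 139 CPM on day 10 (log2 fold change 0.85, SE 0.22, DESeq2 FDR = 0.0595). FLT4, the receptor for lymphatic growth factor VEGFC, had 20.8, 16.8, 16.2 and 11.1 CPM and then 23.9, 24.5 and 60.4 CPM (log2 fold change 1.15, SE 0.36). LYVE1, a hyaluronan receptor of lymphatic vessels and some macrophages, had 45.8, 82.2, 49.6 and 84.5 CPM and then 88, 114 and 166 CPM (log2 fold change 0.90, SE 0.30). The day 10 samples lay above those of day 5 in all 3, and DESeq2 called EMCN, though in only 2 of the 7 fits with 1 sample left out. Among the other 10, log2 fold changes ran from -1.06 to 1.29 without a P under 0.05.

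Angiogenic and vasoactive factors were lower in 9 of 13 cases, with a median log2 fold change of -0.43, with 1 higher and 2 lower at a P under 0.05, and the groups overlapped in all 13. ANGPT1, a ligand that stabilises vessels, had 16.3, 51.5, 16 and 35.3 CPM on day 5 and 20.6, 7.3 and 11.6 CPM on day 10 (log2 fold change -1.20, SE 0.50). THBS2, an inhibitor of vessel growth, had 210.1, 119, 119 and 126 CPM and then 82.6, 123 and 72.1 CPM (log2 fold change -0.64, SE 0.28), and THBS1 a log2 fold change of -0.55 (SE 0.35). FGF1, a growth factor for endothelial cells, had 8.25, 3.94, 9.01 and 7.29 CPM and then 16.7, 21.9 and 6.59 CPM (log2 fold change 1.08, SE 0.41). VEGFA had no symbol here and was not analysed. Pericyte and smooth muscle genes had a median of 0.01, with 6 of 10 higher and none at a P under 0.05, the smallest P being that of TAGLN (log2 fold change -0.63, SE 0.41). Of 13 hypoxia-response genes, 1 had a P under 0.05, LEP, which codes for leptin, with 2.56, 3.78, 8.23 and 6.86 CPM and then 19.1, 4.15 and 14.7 CPM (log2 fold change 1.22, SE 0.53). BNIP3 and CA9 of the same list had log2 fold changes of 0.53 (SE 0.28) and 0.89 (SE 0.58). Most of the list went the other way, with 5 of the 13 higher, 8 lower and a median of -0.095.

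Macrophage and myeloid genes were lower in 13 of 14 cases. Their median log2 fold change was -0.40, and neither tool called any. The median was -0.15 without replicate 5 of day 5. At a P under 0.05, 2 were lower and 1 higher. MSR1, a scavenger receptor, had 27.6, 63.5, 14.8 and 72.2 CPM on day 5 and 20.3, 12.1 and 13.5 CPM on day 10 (log2 fold change -1.55, SE 0.51). CD86, a co-stimulatory ligand, had 30.3, 59.5, 22.9 and 58.6 CPM and then 20.0, 24.6 and 25.3 CPM (log2 fold change -0.89, SE 0.35). In both genes replicates 3 and 5 of day 5 were high and the other day 5 samples lay near or within the day 10 range. The exception to the direction was CX3CR1, the fractalkine receptor of resident macrophages and monocytes, with 6.03, 3.83, 4.46 and 4.59 CPM and then 6.59, 10.9 and 8.65 CPM (log2 fold change 0.88, SE 0.28) and separate groups. The mean level of the list overlapped between days, with a mean log2 CPM of 3.88 to 4.83 on day 5 and 3.75 to 4.12 on day 10.

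All 7 complement and antigen presentation genes tested were lower, without a P under 0.05. CD55, which shields cells from complement, had 1098, 2469, 1350 and 175 CPM on day 5 and 359, 368 and 689 CPM on day 10 (log2 fold change -1.45, SE 0.69), and C1S and PSMB8 had log2 fold changes of -0.41 (SE 0.25) and -0.37 (SE 0.22). Of 14 NF-kB regulators, 9 were lower and none had a P under 0.05, with log2 fold changes of -0.77 (SE 0.35) for BCL3, -0.39 (SE 0.19) for NFKB1 and -0.85 (SE 0.42) for TNFRSF1B. Of 21 cytokines and chemokines, CCL5 had a P under 0.05, with 2.47, 0.889, 2.21 and 2.16 CPM and then 3.56, 4.84 and 3.3 CPM (log2 fold change 1.01, SE 0.40) and separate groups. VCAM1 and IDO1 had log2 fold changes of -0.78 (SE 0.35) and -0.90 (SE 0.46). Of 6 lymphocyte genes, 3 were higher and 3 lower, with a median log2 fold change of -0.04. None had a P under 0.05, and IL7R had the smallest (log2 fold change -1.26, SE 0.87).

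Of neutrophil and mast cell genes, 3 were tested, all 3 higher and 1, KIT, with a P under 0.05. CPA3, a mast cell protease, had 0.251, 0.778, 7.36 and 1.03 CPM on day 5 and 6.67, 3.33 and 21.8 CPM on day 10 (log2 fold change 2.16, SE 0.99). MS4A2, a chain of the receptor for immunoglobulin E, had 0.587, 0.611, 4.6 and 0.972 CPM and then 2.87, 2.51 and 8.12 CPM (log2 fold change 1.40, SE 0.76). Replicate 4 of day 5 was high in both, within the day 10 range. KIT, which mast cells share with other cells of the ovary, had 28.1, 38.7, 38.6 and 41.5 CPM and then 52.9, 71.1 and 49.1 CPM (log2 fold change 0.65, SE 0.21), with separate groups.

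Cell cycle genes had values near 0. Of 32 tested, 21 were lower, the median log2 fold change was -0.08, and 1 had a P under 0.05. That was BUB1B, a spindle checkpoint kinase, with 13.5, 15.7, 13.8 and 9.99 CPM on day 5 and 7.98, 7.35 and 10.7 CPM on day 10 (log2 fold change -0.62, SE 0.25). ANLN and RRM2 had log2 fold changes of -0.55 (SE 0.26) and -0.63 (SE 0.37). Of 11 G1 cyclins and cell cycle inhibitors, 1 had a P under 0.05. This cyclin, CCND2, had 59.8, 68.1, 75.9 and 53.7 CPM and then 34.5, 35.5 and 51.7 CPM (log2 fold change -0.67, SE 0.22), with every day 10 sample lower. BTG1, an inhibitor of proliferation, had a log2 fold change of 0.62 (SE 0.29) and RB1 one of -0.42 (SE 0.28). Of 10 apoptosis genes, 9 were lower, none with a P under 0.05, and APAF1 had the smallest P (log2 fold change -0.36, SE 0.26).

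In the TGF-beta family, 8 of 14 genes were higher and 6 lower, with a median log2 fold change of 0.11 (-0.30 without replicate 2 of day 10). At a P under 0.05, 2 were lower and 1 higher. GREM1, a secreted antagonist of bone morphogenetic proteins, had 9.18, 29.5, 19.1 and 15.8 CPM on day 5 and 7.21, 6.34 and 9.12 CPM on day 10 (log2 fold change -1.29, SE 0.38). ACVR1B, an activin receptor, had 48, 36.4, 31.2 and 14.1 CPM and then 11.9, 16.2 and 13.8 CPM (log2 fold change -1.22, SE 0.37), with replicate 5 of day 5 inside the day 10 range. SMAD2, which carries the activin signal to the nucleus, had 50.9, 49.6, 35.9 and 59.1 CPM and then 89.3, 62.2 and 72.7 CPM (log2 fold change 0.60, SE 0.22), with separate groups. Of 10 follicle and granulosa genes, FSHR was higher and PTX3 lower at a P under 0.05. PTX3, a matrix protein of the ovulatory follicle, had a log2 fold change of -0.89 (SE 0.36).

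Among antioxidant genes, 5 of 13 had a P under 0.05, 2 higher and 3 lower. GCLM, the modifier subunit of the enzyme that starts glutathione synthesis, had 116, 135, 48.2 and 70.1 CPM on day 5 and 32, 39.6 and 30.9 CPM on day 10 (log2 fold change -1.44, SE 0.35, DESeq2 FDR = 0.0159). GCLC, the catalytic subunit of the same enzyme, had 1773, 1943, 1482 and 827 CPM and then 645, 296 and 1117 CPM (log2 fold change -1.15, SE 0.45). Both subunits were thus lower while GPX3 was higher, and the median of the list was -0.13.

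Ribosomal protein genes were higher on day 10 in 52 of 53 cases, each by a little, and their median log2 fold change was 0.49. At a P under 0.05 there were 6, all higher, beside 3.8% of genes with a symbol, and edgeR called none. The groups were separate in 6, of which some but not all had a P under 0.05. RPL7 had 1946, 1488, 1504 and 1716 CPM on day 5 and 2759, 2386 and 2599 CPM on day 10 (log2 fold change 0.63, SE 0.21, DESeq2 FDR = 0.0417). DESeq2 called RPL7 in 2 of the 7 fits with 1 sample left out. RPS27A had a log2 fold change of 0.67 (SE 0.25). The mean log2 CPM of the list was 8.60 to 9.59 on day 5 and 9.43 to 9.83 on day 10, with replicate 3 of day 5 low, and the median was 0.35 without that sample. Ribosomal protein genes have many near-identical copies, among which reads may be divided. Of 9 mitochondrial respiration genes, 7 were higher, none at a P under 0.05. COX4I1 had 226, 168, 197 and 172 CPM and then 239, 229 and 243 CPM (log2 fold change 0.31, SE 0.18), and COX5A a log2 fold change of -0.37 (SE 0.27).

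Of 19 immediate-early genes, 15 were higher. The median log2 fold change was 0.35, and the groups overlapped in all but 1. Leaving out 1 sample moved the median from -0.13 without replicate 4 of day 10 to 0.73 without replicate 2. ATF3, a stress-induced transcription factor, had 27.9, 24.7, 39.1 and 50.04 CPM on day 5 and 55.4, 68.3 and 156 CPM on day 10 (log2 fold change 1.39, SE 0.37, DESeq2 FDR = 0.0573) and was that member, the lowest day 10 sample lying just above the highest of day 5. DESeq2 called ATF3 in 3 of the 7 fits with 1 sample left out. MYC had a log2 fold change of 0.56 (SE 0.37). Genes of the unfolded protein response had a median of 0.04, and 1 of 10 had a P under 0.05. SEL1L, a part of the degradation machinery of the endoplasmic reticulum, had 106, 553, 208 and 115 CPM and then 93.5, 87 and 106 CPM (log2 fold change -1.38, SE 0.55), replicate 3 of day 5 being high, and ATF6 had a log2 fold change of -0.54 (SE 0.26).

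The CL were trimmed of surrounding ovary before extraction, but markers of other tissue were counted, at levels that overlapped between the days. All 10 oocyte genes tested had higher values on day 10, none with a P under 0.05, and their median log2 fold change was 1.09. It was 0.56 without replicate 3 of day 10 and 2.64 without replicate 1 of day 5. ZP2, a protein of the egg coat, had 21.1, 0.333, 6.12 and 2.38 CPM on day 5 and 27.8, 31.7 and 0.883 CPM on day 10 (log2 fold change 1.42, SE 1.16). The samples that were high came from both days, and the mean log2 CPM of the list was -2.16 to 2.59 on day 5 and -1.04 to 2.83 on day 10. Of 3 epithelial genes, PAX8 had a P under 0.05, with 3.27, 1.39, 1.84 and 5.13 CPM and then 11.6, 4.47 and 6.83 CPM (log2 fold change 1.38, SE 0.49). Of 2 red cell genes neither had a P under 0.05, and ALAS2 was at 0.838, 0.611, 0 and 1.46 CPM and then 4.11, 0.274 and 4.65 CPM (log2 fold change 2.03, SE 1.05). Of 2 adipocyte genes, LEP, given above, had a P under 0.05, and the other was lower. The red cell genes were likewise 1 higher and 1 lower, and of the 3 epithelial genes 2 were higher and 1 lower. The part of such cells in the differences above was not tested. The genes of the qPCR panel were chosen on these samples. Of the 16 tested, FGF1 alone had a P under 0.05, and their median log2 fold change was 0.03.

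Later levels in control CL, from 3 samples each on days 20 and 30, are given beside those of day 10 without a test. Symbols were available only for genes that the study had listed as differentially expressed. Its contrasts included control days 20 and 30 against the earlier control days, with these same samples. Genes with a symbol were thus in part selected for differing on the later days. The later levels are therefore given as values, and no continued change is concluded from them. HERC6 had higher means than on day 10, at 36.3 ± 25.9 CPM on day 20 and 33.5 ± 15.3 CPM on day 30, and RNF213 at 59.3 ± 20.3 and 97.8 ± 30.7 CPM (SD, n = 3). COL1A1 had means below that of day 10, with 546 ± 313 and 551 ± 302 CPM. In COL12A1 the later means were above that of day 10, at 235 ± 2.11 and 209 ± 80.1 CPM against 168 ± 42.3 CPM. IGFBP2 had means below that of day 10, at 1.69 ± 1.46 and 2.03 ± 1.43 CPM. For some genes that were higher on day 10, the later means were far above. SLC27A2 had 82.9 ± 87.6 and 103 ± 64.1 CPM, against 2.72 ± 1.27 CPM on day 10. GPX3 had 1459 ± 535 and 1476 ± 297 CPM, against 266 ± 64 CPM. HPGD had 38.1 ± 23.6 and 46.3 ± 41.9 CPM, and CYP19A1 had 1550 ± 674 and 1579 ± 66.1 CPM, against 473 ± 197 CPM on day 10. EMID1 differed from these, with a day 20 mean of 1.48 CPM, below that of day 10.

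**Figure D4:**
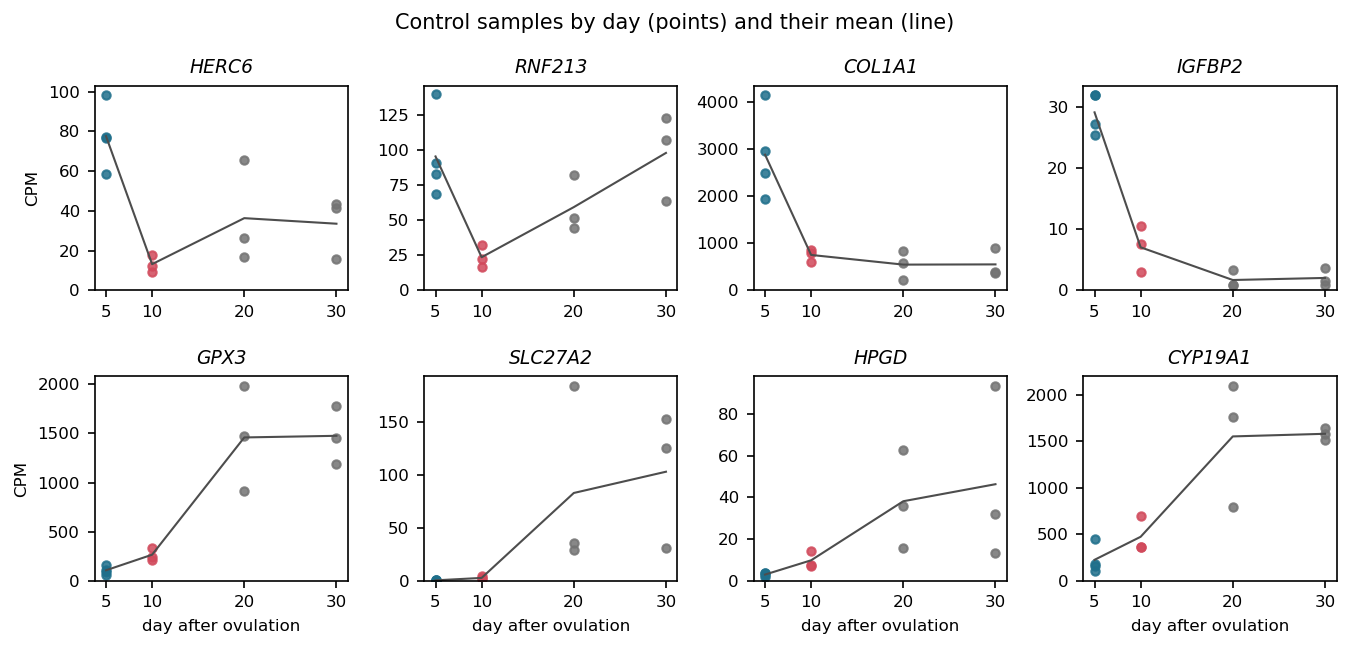
CPM in the control samples of days 5, 10, 20 and 30 (points, 4 samples on day 5 and 3 on each other day) with the mean of each day (line) for 8 genes. HERC6 and RNF213 are lowest on day 10, COL1A1 and IGFBP2 have lower means on all later days than on day 5, and GPX3, SLC27A2, HPGD and CYP19A1 are highest on days 20 and 30. Genes with a symbol were in part selected by the study for differing on days 20 and 30.

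The same step was followed in dogs given firocoxib, which are other animals (4 on day 5, 3 on day 10). There edgeR called 0 of 13613 genes, with 604 (4.44%) at a P under 0.05, 1.21% higher and 3.22% lower. This count was 380 without replicate 2 of day 5 and 1231, 311 and 269 without replicates 1, 4 and 5 of day 10. DESeq2 called 44 (0.323%), 5 (0.0367%) higher and 39 (0.286%) lower. Of the first 10 genes lower in controls, all 10 were also lower in treated samples, where 49.6% of all genes were. Of the first 10 higher ones 9 were also higher, as were 50.4% of all genes. These counts are of direction alone, and EMID1, for one, had a log2 fold change of 0.05 (SE 0.84) there. The treated groups were separate in 4 of the 10 lower and 2 of the 10 higher genes. COL1A1 was at 6429, 4975, 6048 and 2699 CPM on day 5 and 661, 1222 and 815 CPM on day 10 in treated dogs (log2 fold change -2.44, SE 0.45). HERC6 was at 5.2, 59.4, 42.6 and 17.6 CPM and then 6.6, 23.5 and 20.9 CPM, with overlapping groups (log2 fold change -0.84, SE 0.78). In treated dogs 25 of 27 fibroblast and collagen genes were lower, 15 of all 27 with a P under 0.05, and their median log2 fold change was -1.27. IGFBP2 had -2.32 (SE 0.57), close to its value in controls.

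The difference between the treated and control steps was tested as the interaction of day with treatment, and 0 of 13815 genes passed by edgeR or DESeq2 (smallest FDR = 0.9996). At an unadjusted P under 0.05 there were 242 (1.75%), of which the control step was the higher in 1.27% of genes tested and the lower in 0.478%. The count was 1235 without replicate 1 and 154 without replicate 5 of treated day 10, 410 without replicate 5 of treated day 5 and 154 without replicate 2 of control day 10. Lists with unlike medians are therefore given as values. In controls the medians of the endothelial, pericyte, cell cycle, antioxidant, unfolded protein response and qPCR lists changed sign with 1 sample or another left out. So did those of the lymphocyte, cytokine, hormone receptor, follicle and red cell lists. The same held for steroidogenesis, cholesterol biosynthesis, the IGF system, the TGF-beta family and immediate-early genes, as given above. Pericyte and smooth muscle genes had a median log2 fold change of 0.01 in controls and -1.84 in treated dogs, with an interaction P under 0.05 in 7 of 10. Cell cycle genes had -0.08 and -1.09, with 6 of 32, and cholesterol biosynthesis 0.33 and 1.23, with 2 of 11. Ribosomal protein genes had 0.49 and -0.11, with 0 of 53.

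CNN1 and SMIM1 were among the genes with a symbol that had the smallest interaction P. CNN1, the smooth muscle protein calponin, had 7.12, 4.33, 5.66 and 7.45 CPM on day 5 and 14.1, 8.44 and 2.88 CPM on day 10 in controls, and 48.2, 65.6, 142 and 8.84 CPM and then 12.5, 5.64 and 4.98 CPM in treated dogs. SMIM1, known from red cells, had a log2 fold change of 0.17 in controls and -3.01 in treated dogs.

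**Figure D5:**
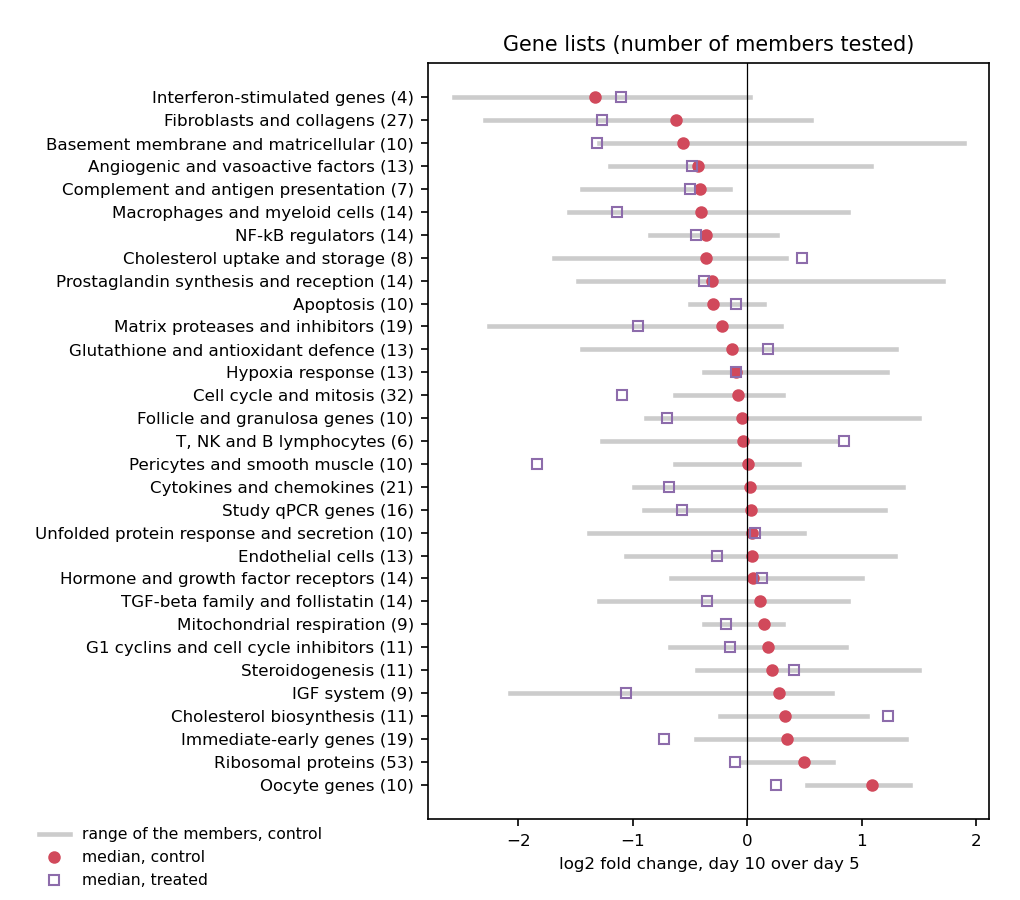
Median log2 fold change of day 10 over day 5 for each gene list with at least 4 members tested, in control (filled circles) and treated samples (open squares), with the range of the members in controls (grey bars). Interferon-stimulated and collagen genes are at the low end in controls, and ribosomal protein and oocyte genes at the high end; pericyte genes differ most between the squares and circles.

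Genes without a symbol were 9298 of those tested, and 129 of them had a P under 0.01 and 72 were called by DESeq2. Genes with a symbol were 31.32% of those tested but 43.17% of those with a P under 0.01. DESeq2 called 1.7% of genes with a symbol, against 1.06% of all genes tested. Genes without a symbol thus passed less often than all genes tested. The most counted gene of all, ENSCAFG00000022723, is 1 of the genes without a symbol. It took 4.55 to 5.55% of the reads on day 5 and 8.01 to 11.3% on day 10, with 45140, 45840, 41880 and 53790 CPM and then 86720, 78250 and 125700 CPM (log2 fold change 1.05, SE 0.30, DESeq2 FDR = 0.00169). With the smallest P among those with separate groups, ENSCAFG00000014257 was higher at 1.32, 1.46 and 2.41 CPM on day 10, against 0.0838, 0.278, 0.184 and 0.216 CPM on day 5, and ENSCAFG00000028829 lower at 1.63, 2.1 and 2.12 CPM, against 17, 7.72, 9.24 and 8.15 CPM (log2 fold change -2.43, SE 0.37).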

How the data were processed

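The read counts per Ensembl gene (CanFam3.1) were deposited by the authors without normalization or a filter. The submitters' processing notes name STAR and featureCounts. From these counts, genes were kept when either group averaged 10 reads or more, then scaled with TMM factors and tested in R 4.3.3 with edgeR 4.0.16 (quasi-likelihood test, Benjamini-Hochberg FDR), on the samples of each comparison. DEGs had P under 0.01 and FDR under 0.1. P is unadjusted and FDR adjusted over all genes tested. The standard error (SE) was derived as the absolute log2 fold change over the square root of the test's F statistic. It is therefore not independent of P. Printed CPM used TMM factors over all 26 samples, with a prior count of 2 for log2 values. Alternatives were DESeq2 1.42.0 with and without cutoffs, limma 3.58.1 voom, RLE factors, other filters, larger sets of samples, each sample left out and the replicate number as a block. Leaving out samples with DESeq2 was added after seeing the data.

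The comparison and the 35 gene lists were chosen with earlier results of these data known. Symbols came from the study's supplementary tables, and of 19856 genes 4345 had one of their own. Named were the 10 genes of each direction with the smallest P and groups that do not overlap, the 3 members of each list with the smallest P and any DEG, the qPCR panel and the 3 with the smallest interaction P, which made 127, of which some are not reported here. Values are printed for those with a P of at most 0.2, the luteal receptors and PTGES, the interferon list and the interaction genes. Each replicate was a separate dog, as the study describes. No 2 samples of a group agreed within sampling noise (chi-square per degree of freedom 57.9 to 184).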

Additional observations from a re-analysis of the deposited data

Results flagged for a closer look

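Among the genes whose values are given in the report, 6 had 1 of the 4 day 5 control samples far from the other 3. The measure was the ratio of that sample's gap to the nearest sample over the range of the group. The limit was Dixon's criterion at the 95% level, which about 1 of 20 groups of 4 pass by chance. Many genes were examined, so several would pass by chance, and these 6 are listed as values only. Groups of 3, which includes day 10, were not examined this way. Replicate 4 was high in CPA3 (ratio 0.891, 7.36 CPM against 1.03 CPM in the nearest) and in MS4A2 (ratio 0.904, 4.60 against 0.972 CPM), both mast cell genes. Replicate 1 was high in THBS2 (ratio 0.92, 210.1 against 126 CPM) and in COL3A1 (ratio 0.875, 6295 against 4302 CPM). Replicate 3 was high in LUM (ratio 0.861, 2462 against 1383 CPM) and low in EMID1 (ratio 0.93, 2.33 against 2.98 CPM). In COL3A1, LUM and EMID1 the sample lay on the far side from day 10 and the groups were separate without it.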

How the results depend on the processing

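The count of DEGs in controls depended on the tool. It was 1 with edgeR and 144 with DESeq2 (146 without its cutoffs), 0 in the fits of all 13 controls and of all 26 samples, 0 at an FDR under 0.05, and 0 to 3 with each sample left out. With RLE factors, without a filter, with filterByExpr and with limma voom it stayed at 1, HERC6 (FDR = 0.0742, 0.0249, 0.0682 and 0.0529). With the replicate block, which leaves few degrees of freedom, it was 77. The numbers were not taken to pair the samples, because the study describes separate dogs. The deviations of samples with the same number from their group means correlated at -0.0508 for number 3 and -0.0368 for number 4. Control samples with unlike numbers correlated at -0.263 to 0.284. Too few samples shared a number for these values to decide the matter. Treated samples with the same number correlated at 0.697, 0.0787 and 0.374, and those with unlike numbers at -0.599 to 0.521. The block gave 0 DEGs in treated dogs and in the interaction. In treated dogs DESeq2 called 44. The other counts of DEGs for treated dogs and the interaction stayed at 0. The distance between the days was 33.3 over 500 genes (p = 0.114), 58.6 over all genes (p = 0.114) and 46.5 with RLE factors (p = 0.143, exact permutation tests). With each sample left out it was 43.8 to 55.3, in designs too small to reach a p of 0.05.

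Of 1630 values of named genes under alternatives, 1542 kept their direction and side of the thresholds, 71 gained a call, 8 lost one and 9 turned. IL7R turned to 0.19 under the block. With each sample left out, values turned in HSD17B1 (-0.71 to 2.02), CNN1 (-0.13 to 0.84), SMIM1 (-0.68 to 0.49), IRF1 (-0.15 to 0.13) and IFI6 (-1.78 to 0.039). The cause was not tested. The worth of 1 CPM was 12.9 to 23.9 reads, so values under 1 CPM rest on few reads.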
